A study of Mus musculus with 4 samples.

Results

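Matrix metalloproteinases and their tissue inhibitors were followed across the myeloid leukocytes of mouse pancreatic tumours, by single-cell RNA sequencing. The genes described are Mmp8, Mmp9, Mmp12, Mmp13, Mmp14, Mmp19, Timp1 and Timp2, 8 of the 32285 genes in the count table. They were taken by symbol from a list made with earlier results of these data known, and all 8 were present. Levels were read in neutrophils, monocytes, macrophage subsets and dendritic cells of 4 libraries. The tumours grew under the skin of C57BL/6 mice from syngeneic KPC cells, a pancreatic cancer line. The hosts were genetically unmodified males. A library each came from mice left untreated, mice given a STING agonist (the cyclic dinucleotide ADU-S100, injected into the tumour), mice given an LTbR agonist (the antibody 4H8 against the lymphotoxin-beta receptor, injected into the peritoneum), and mice given both, called the combination here. Age, line and sort were the same in all groups. By the methods, the STING agonist was given once at the start and the antibody repeatedly. Tumours were taken days after the last antibody dose, so the libraries do not show an immediate response to the STING agonist. All tumours of 1 treatment were combined before live CD45+ cells were sorted, according to the methods, so there are no values per animal. With 1 library a group no difference between treatments could be tested, and each one below describes a pair of libraries.

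Matrix metalloproteinases are zinc proteases made as inactive precursors that, once cleaved, cut collagens, elastin, gelatins and many signalling proteins. TIMPs are small secreted proteins that block the active site of these enzymes. In tumours much of this protease activity comes from infiltrating leukocytes: neutrophils store MMP8 and MMP9 in their granules, and macrophages secrete MMP12 and carry MMP14 on their surface. TIMP2 also helps MMP14 to activate pro-MMP2, so an inhibitor can take part in activation.

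In the mouse annotation that matches the build of the files (GENCODE vM21, GRCm38) the members lie on 6 chromosomes. Mmp9 is on chromosome 2 (164940780 to 164955850, plus strand), Mmp19 on chromosome 10 (128790910 to 128800824, plus), Timp2 on chromosome 11 (118301069 to 118355740, minus), Mmp14 on chromosome 14 (54431612 to 54445364, plus) and Timp1 on chromosome X (20870166 to 20874735, plus). The other 3 lie on the plus strand of chromosome 9, with Mmp13 at 7272514 to 7283331, Mmp12 at 7344381 to 7369499 and Mmp8 at 7558456 to 7568485, all within 296 kb. Of these 3, Mmp12 and Mmp13 had their highest mean levels over the 4 libraries in Hspa1b Inhba macrophage-like cells, whereas Mmp8 was highest in neutrophil-like and monocyte-like cells. For that reason their promoter windows are shown, as the 250 bases before each start in RefSeq (GRCm38.p6). Capitals mark matches, on either strand, to the AP-1 motif TGANTCA and to a core of the interferon-stimulated response element, GAAA, any 2 bases and GAAA.
Mmp13 (chr9:7272264-7272513, plus strand): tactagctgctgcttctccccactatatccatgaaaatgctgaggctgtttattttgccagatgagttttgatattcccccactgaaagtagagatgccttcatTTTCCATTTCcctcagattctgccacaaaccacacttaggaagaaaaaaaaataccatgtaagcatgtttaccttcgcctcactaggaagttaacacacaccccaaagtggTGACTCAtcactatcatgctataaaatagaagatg
Mmp12 (chr9:7347124-7347373, plus strand): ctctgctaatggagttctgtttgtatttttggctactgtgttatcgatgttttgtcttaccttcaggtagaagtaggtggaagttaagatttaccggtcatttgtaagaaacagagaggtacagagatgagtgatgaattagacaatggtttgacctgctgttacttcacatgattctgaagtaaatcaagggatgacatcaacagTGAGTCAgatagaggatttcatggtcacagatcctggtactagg
Mmp8 (chr9:7558179-7558428, plus strand): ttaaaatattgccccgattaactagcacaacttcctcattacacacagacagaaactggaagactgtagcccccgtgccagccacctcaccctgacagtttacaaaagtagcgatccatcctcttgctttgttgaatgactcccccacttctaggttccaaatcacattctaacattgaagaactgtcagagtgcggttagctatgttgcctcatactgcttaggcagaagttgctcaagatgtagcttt
The Mmp13 window held an AP-1 match 35 bases before the start and an interferon element core, on the minus strand, 146 bases before it. The Mmp12 window held an AP-1 match 44 bases before the start at 7347374, where 2 protein-coding transcripts begin, and none before its other RefSeq start at 7344397. No match was present in the Mmp8 window, nor in those of Mmp14, Timp1 and Timp2. Of 32851 RefSeq windows of this length, 6.75% held the AP-1 motif and 2.98% the interferon element core. RefSeq windows were matched for 6 of the 8 members, and a match describes letters, not a bound factor.

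After the study's limits on genes and mitochondrial RNA, 23011 of 24839 barcodes were kept, 3748 to 7147 per library. A cell held a median of 5750 to 7094 unique molecular identifiers (UMIs, each a counted RNA molecule), and 29 to 52 barcodes were shared by any pair of libraries. Cells were clustered without the members, the other protease genes listed here and the antigen receptor genes, so no subset was made from the genes described. Neutrophil-like cells numbered 230, 304, 387 and 69. Values given as 4 in a row here and below stand in the order untreated, STING agonist, LTbR agonist and combination. The 9009 macrophage- or monocyte-like cells formed 6 subsets, each named by its leading genes. They are monocyte-like cells (962, led by Ace, Adgre4 and Hp), Cxcl10 Tgm2 monocyte-derived-like cells (2363), C1q Trem2 macrophage-like cells (2223), Mrc1 Pf4 macrophage-like cells (1619), Ccl24 Inhba macrophage-like cells (1342) and Hspa1b Inhba macrophage-like cells (500), the last led by heat-shock genes. The 1699 dendritic-like cells formed a Cd209a subset (988), a mature subset (469, led by Fscn1, Ccr7 and Ccl22) and a plasmacytoid subset (242). Type 1 conventional dendritic cells did not form a cluster of their own at this resolution. Clustering the dendritic-like cells again gave 106 led by Xcr1 and Cadm1, but also 524 cells named macrophage- or monocyte-like, 91 named T-like and 176 left unnamed, most of the first in the Cd209a subset. Neutrophil markers were present as labelled, with 10 markers summing to 55242 to 76947 CPM (UMIs per 1000000 UMIs of the same cells) in neutrophil-like cells. The summed level of a heat-shock and immediate-early stress list was highest in the STING agonist library in 10 of 10 subsets, for example 4079, 4597, 3132 and 3853 CPM in C1q Trem2 cells. Its part in the results was not tested.

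A level below is the CPM of a gene, that is its UMIs scaled to all UMIs of the cells of that subset in 1 library, with an exact Poisson 95% interval, so it can be compared across subsets and libraries but not between genes. A log2 ratio compares a pair of libraries after adding 10 CPM to each, and its bounds join the opposite ends of the 2 intervals. Intervals, bounds and ranges cover counting error only. A pair of gene and subset was called past 2-fold when the log2 ratio was at least 1 or at most -1 and at least 50 UMIs were counted in either library. The 3 comparisons against untreated share the untreated library.

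The subset with the highest level differed between members, described gene by gene after the counts. For some, such as Mmp8 and Mmp19, its range overlapped that of another subset. Over the 3 classes (neutrophil-like, macrophage- or monocyte-like, dendritic-like), which make 24 pairs of member and class, 17 pairs had enough UMIs for the STING agonist against untreated and 1 was past 2-fold, beside 0.398% of all genes tested in these classes. For the LTbR agonist 3 of 18 pairs were past 2-fold, all higher, beside 0.489% of all genes. For the combination 0 of 15 pairs were, beside 0.872%. The STING agonist call and 2 of the 3 LTbR agonist calls were in neutrophil-like cells. There the share of all genes past 2-fold was larger than over the 3 classes, as given with the other genes of the system. These neutrophil-like calls did not hold once a small set of cells was left out, as described below. All 8 members had enough UMIs in macrophage- or monocyte-like cells, 2 to 5 in neutrophil-like cells and 5 in dendritic-like cells. In macrophage- or monocyte-like cells the median log2 ratio of the 8 members was 0.20 with the STING agonist, -0.01 with the LTbR agonist and -0.34 with the combination, and that of all genes tested was 0.01, 0.02 and 0.03.

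More pairs were past 2-fold once the 10 subsets were taken one by one, which makes 80 pairs of member and subset in each comparison. With the STING agonist 3 of 42 pairs with enough UMIs were past 2-fold (0.549% of all genes over the same subsets). They were Mmp12 lower and Mmp19 higher in Mrc1 Pf4 cells and Mmp14 lower in neutrophil-like cells. With the LTbR agonist 4 of 47 pairs were past 2-fold, all higher (0.79% of all genes), and 3 of these 4 were Mmp12. With the combination 5 of 41 pairs were past 2-fold (1.45% of all genes), 2 higher and 3 lower. The widest contrast was the combination against the STING agonist alone, with 12 of 36 pairs past 2-fold (1.82% of all genes), 3 higher and 9 lower. Against the LTbR agonist alone, the combination had 5 of 45 pairs past 2-fold (1.04% of all genes), 1 higher and 4 lower. Adding 50 CPM in place of 10 left 1 pair past 2-fold in each of the 3 comparisons against untreated. Leaving out the neutrophil-like cells that a finer clustering placed elsewhere kept 2 of the 3 STING agonist calls and 2 of the 4 LTbR agonist calls. The calls of Mmp14, Mmp12 and Timp1 in neutrophil-like cells were lost.

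**Figure D1:**
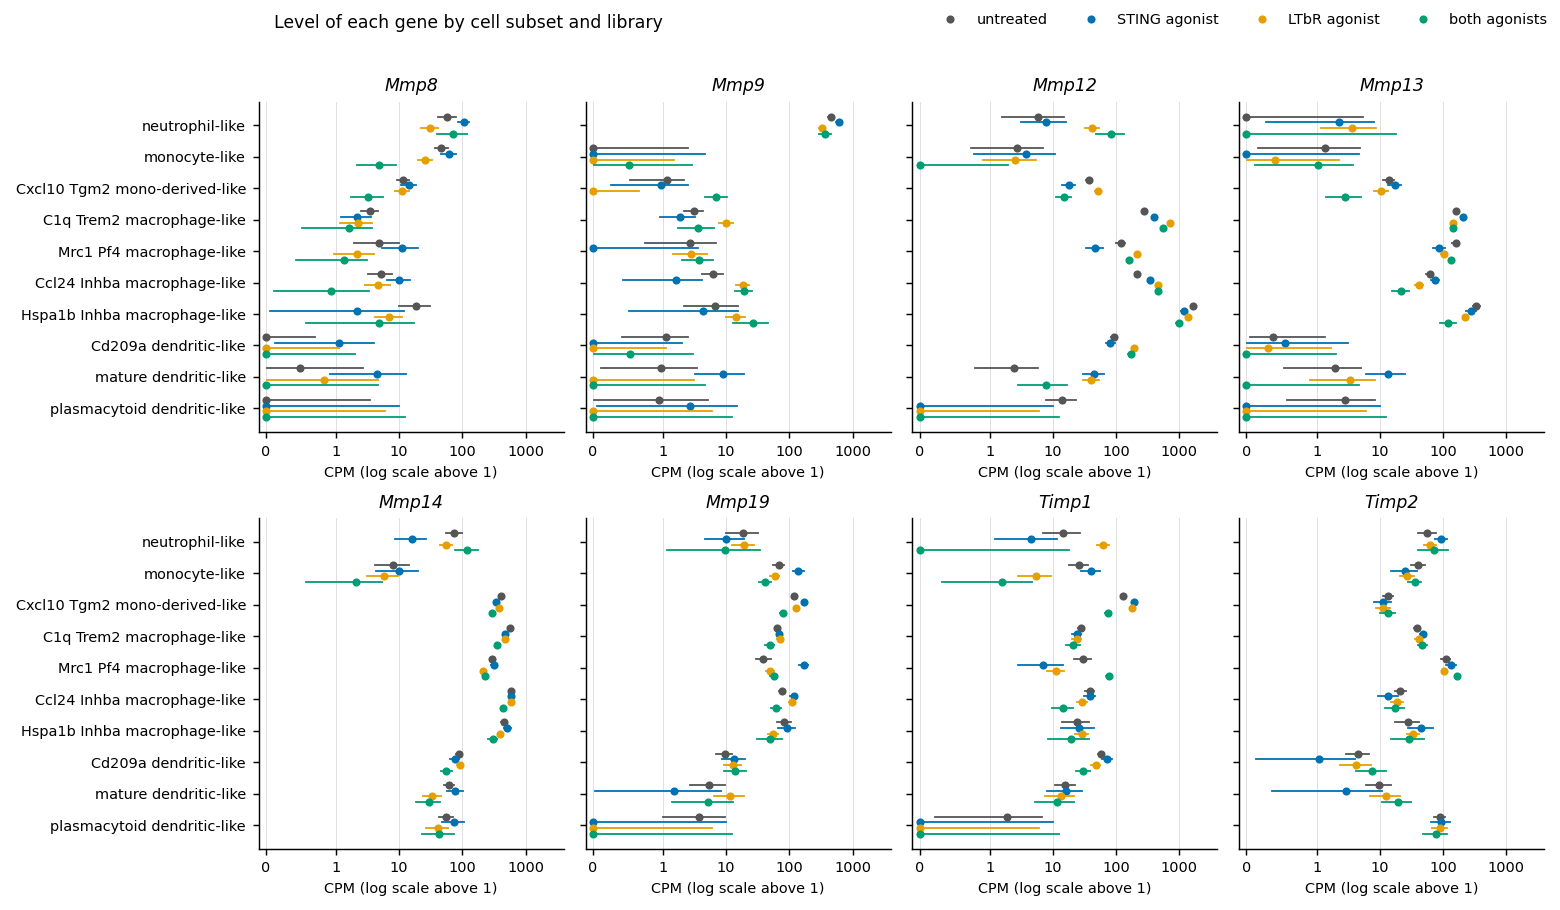
Level of each member (CPM, log axis above 1) in the 10 myeloid subsets, 1 panel a gene, 1 point a library, with exact Poisson 95% intervals. Mmp9 stands apart in neutrophil-like cells, between 328 and 608 CPM, Mmp12 is highest in Hspa1b Inhba cells, between 984 and 1620 CPM, and Timp1 is highest in Cxcl10 Tgm2 cells, between 73.8 and 190 CPM.

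Mmp9, the gelatinase of neutrophil granules, marked the neutrophil-like cells. They were 4.30% of all cells and held 67.9% of the 2040 Mmp9 UMIs. The level in neutrophil-like cells was 460 CPM (411 to 514) in the untreated library, 608 CPM (558 to 662) under STING agonist, 328 CPM (298 to 359) under LTbR agonist and 369 CPM (291 to 461) under both. The STING agonist library was the highest, its interval above the other 3, and the interval of the combination overlapped those of the untreated and LTbR agonist libraries. Without the cells that a finer clustering placed elsewhere, described below, the STING agonist library was not apart from the combination. The log2 ratio to untreated was 0.39 (0.12 to 0.67) for the STING agonist, -0.48 (-0.77 to -0.19) for the LTbR agonist and -0.31 (-0.80 to 0.16) for the combination. Mmp9 UMIs were found in 56.1%, 55.3%, 45.7% and 44.9% of neutrophil-like cells, at median depths of 1979 to 2391.5 UMIs. In T-like cells, which should lack Mmp9, the shares were 1.37%, 3.05%, 2.02% and 1.48% at median depths of 4434 to 5518 UMIs. The mean over the 4 libraries was 441 CPM (SD 124, n = 4 libraries of different treatment), and no other subset overlapped this range. Macrophage-like subsets held little Mmp9. It was 6.28, 1.60, 18.3 and 19.0 CPM in Ccl24 Inhba cells, and in the LTbR agonist library 10 cells held 98.8% of these UMIs.

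Mmp8, the neutrophil collagenase, was found both in neutrophil-like and in monocyte-like cells, whose ranges overlapped. In neutrophil-like cells it was 57.9 CPM (41.4 to 78.9), 105 (85.2 to 129), 30.7 (22.1 to 41.5) and 71.9 (40.2 to 119), from 40, 94, 42 and 15 UMIs. As for Mmp9, the STING agonist library was the highest and the LTbR agonist library the lowest, and the log2 ratio with the STING agonist was 0.77 (0.10 to 1.44). After thinning each cell to 1000 UMIs, 28 of 54 neutrophil-like cells with Mmp8 also had Mmp9 (51.9%), against 266 of 871 without Mmp8 (30.5%). The T-like cells held no Mmp8 UMI in any library.

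In monocyte-like cells Mmp8 was lowest with the combination, at 46.7 CPM (36.4 to 59.1), 61.1 (45.2 to 80.7), 25.9 (19.9 to 33.1) and 4.72 (2.16 to 8.96). The combination interval lay below the other 3. The log2 ratio was -1.95 (-2.51 to -1.29) against untreated and -1.29 against the LTbR agonist alone. The monocyte-like subset holds cells led by Hp and Vcan, both known from classical monocytes, and cells led by Ace, Adgre4 and Ear2, known from non-classical ones. The latter were 38, 20, 137 and 168 of the cells and held almost no Mmp8 (0, 0, 1.55 and 1.23 CPM). Within the Hp and Vcan cells alone Mmp8 was 54.7, 69.9, 34.4 and 7.08 CPM, the lowest value again with the combination, from 7 UMIs. With equal weight for both kinds of cell the log2 ratio to untreated was -0.88, short of 2-fold. This value cannot decide whether the call holds. Cells with almost no Mmp8 have a ratio near no change once 10 CPM is added, and they draw the mean toward it. Cxcl10 Tgm2 monocyte-derived-like cells had Mmp8 at 11.4, 14.1, 11.2 and 3.27 CPM, with a log2 ratio of -0.69 for the combination.

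Mmp14, Mmp12 and Timp1 were past 2-fold in neutrophil-like cells, and none of these calls held once a small set of cells was left out. Mmp14, the membrane-bound collagenase that activates other metalloproteinases, was 73.8, 15.7, 55.6 and 120 CPM there, with a log2 ratio of -1.71 (-2.53 to -0.84) for the STING agonist. Mmp12 was 5.79, 7.86, 41.7 and 81.5 CPM (1.71 with the LTbR agonist), and Timp1 was 14.5, 4.49, 62.9 and 0 CPM (1.57 with the LTbR agonist). At a finer clustering 12, 6, 33 and 7 of the neutrophil-like cells were placed elsewhere, most of them with B-like cells. Their median depth was 11432 to 13126 UMIs, against 1868 to 2355.5 UMIs for the rest. In those placed with B-like cells Mmp14 was 357, 50.7, 159 and 163 CPM and Timp1 62.4, 16.9, 226 and 0 CPM. In the cells that stayed neutrophil-like Mmp14 was 7.11, 6.10, 8.18 and 7.95 CPM, Mmp12 0, 2.44, 6.13 and 0 CPM, and Timp1 5.33, 0, 1.02 and 0 CPM. Without the placed cells the 3 log2 ratios were -0.09 for Mmp14, 0.69 for Mmp12 and -0.48 for Timp1. Mmp9 and Mmp8 were found in the cells that stayed, with Mmp9 at 540, 658, 433 and 565 CPM and Mmp8 at 71.1, 112, 39.9 and 111 CPM. The STING agonist library was still the highest for Mmp9 and the LTbR agonist library the lowest for both genes. The Mmp9 interval of the combination, from 62 cells, then overlapped that of the STING agonist library.

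**Figure D2:**
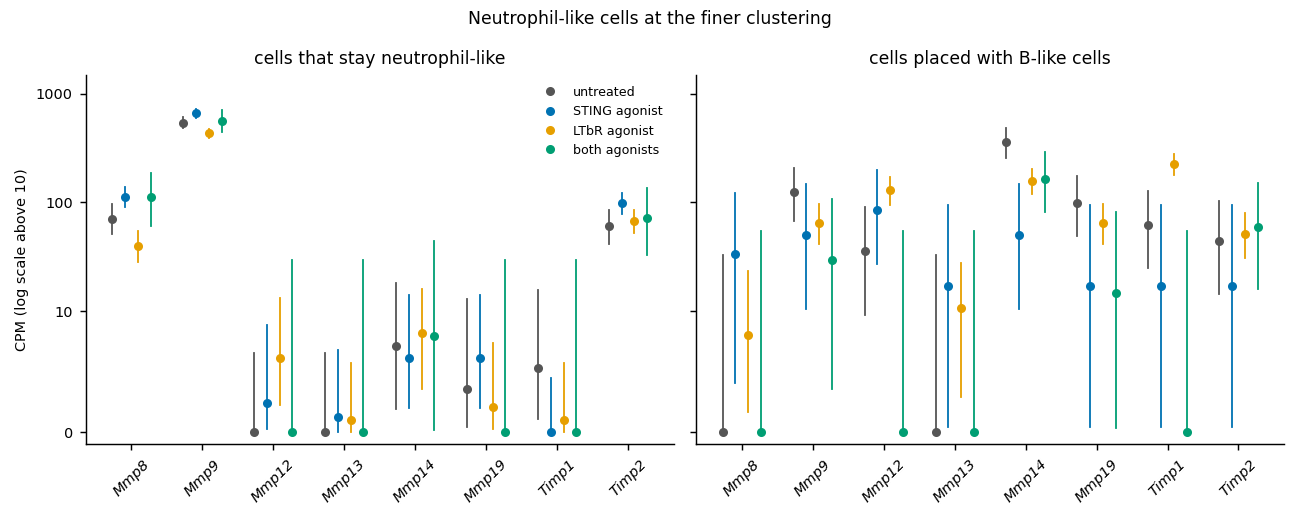
Level of each member (CPM, log axis above 10) in neutrophil-like cells that stayed so at the finer clustering and in those then placed with B-like cells, by library, with exact Poisson 95% intervals. Mmp9 and Mmp8 are in the cells that stayed, with Mmp9 at 433 to 658 CPM, and Mmp14, Mmp12 and Timp1 are in the placed cells, with Mmp14 at 50.7 to 357 CPM.

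Mmp12, the macrophage elastase, differed among macrophage-like subsets as well as among libraries. Of 28032 Mmp12 UMIs 42.0% were in C1q Trem2 cells, 19.6% in Hspa1b Inhba cells and 17.2% in Ccl24 Inhba cells. The highest level was in Hspa1b Inhba cells, at 1620, 1175, 1362 and 984 CPM, above the range of every other subset. There the untreated library was the highest, and the log2 ratios were -0.46, -0.25 (-0.38 to -0.12) and -0.71.

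In C1q Trem2 cells the untreated library was the lowest instead. Mmp12 was 275 CPM (266 to 285) in the untreated library, 400 CPM (384 to 415) under STING agonist, 709 CPM (687 to 731) under LTbR agonist and 554 CPM (528 to 581) under both, and no interval overlapped another. The log2 ratios were 0.52 (0.42 to 0.62), 1.33 (1.24 to 1.42) and 0.98 (0.87 to 1.10). The share of cells with Mmp12 was 37.1%, 46.5%, 65.7% and 57.5%, at median depths of 10218.5, 12666.5, 13110 and 12451.5 UMIs. Thinned to 1000 UMIs a cell it was 14.0%, 18.6%, 29.7% and 24.6%, in the same order. T-like cells had Mmp12 in 0.482%, 0.218%, 1.21% and 1.08%. In Ccl24 Inhba cells the untreated library was the lowest too, at 211, 343, 451 and 461 CPM, with log2 ratios of 0.67, 1.06 (0.91 to 1.21) and 1.09 (0.91 to 1.27). With equal weight for each finer cluster the LTbR agonist ratio was 1.09 in C1q Trem2 cells and 0.84, short of 2-fold, in Ccl24 Inhba cells.

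Mmp12 was also found in Cd209a dendritic-like cells, at 91.8, 80.5, 191 and 173 CPM. Both libraries with the LTbR agonist were above both without it. The log2 ratio with the LTbR agonist was 0.98 (0.76 to 1.21), and 1.02 (0.81 to 1.23) over all dendritic-like cells. Few cells carried it: Mmp12 was found in 16.3%, 13.04%, 25.7% and 20.5% of Cd209a cells, and 10 cells held 52.9%, 89.7%, 45.8% and 76.7% of the UMIs. The summed level of 9 general macrophage markers in these cells was 987, 1302, 951 and 1053 CPM. When the dendritic-like cells were clustered again, 233, 79, 133 and 56 of the Cd209a cells were named macrophage- or monocyte-like, and these held 64.8%, 56.8%, 61.2% and 74.8% of the Mmp12 UMIs of the subset, with most of the rest in unnamed cells. In the cells that stayed dendritic-like Mmp12 was 1.43, 0, 4.33 and 20.6 CPM, from 2, 0, 4 and 14 UMIs. The level in the macrophage- or monocyte-like ones was 111, 80.7, 252 and 317 CPM, so the values of this subset are mostly not those of cells that kept a dendritic-like name. Over all cells that stayed dendritic-like Mmp12 was 4.52, 0.700, 18.9 and 12.1 CPM (0.99 with the LTbR agonist, short of 2-fold), and 44 of the 48 UMIs with the LTbR agonist were in mature cells. In Cxcl10 Tgm2 cells Mmp12 was 37.5, 18.0, 51.5 and 14.9 CPM, with a log2 ratio of -1.31 for the combination against the LTbR agonist alone.

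In Mrc1 Pf4 macrophage-like cells Mmp12 was lower with the STING agonist, at 118, 45.6, 215 and 161 CPM and a log2 ratio of -1.20 (-1.76 to -0.64), as it was by less than 2-fold in Hspa1b Inhba and Cxcl10 Tgm2 cells (-0.46 and -0.77). This value came short of 2-fold without the 10 cells richest in the gene in each library (-0.95) and as a mean of CPM per cell (-0.90). The subset held 4 main finer clusters with unlike levels. Cells led by Ccl8, Pf4 and Atp6v0d2 had Mmp12 at 167, 314, 2139 and 1138 CPM, from 51, 46, 87 and 79 cells of low depth, with a median of 1589 UMIs in their finer cluster. In cells led by Ccl8, Pf4 and Mrc1 it was 168, 38.2, 180 and 132 CPM, and in cells led by Retnla and Lyz1 225, 54.0, 227 and 166 CPM. The leading genes of the Retnla and Lyz1 cells, with a median depth of 2375.5 UMIs, also held Csmd1, Hmga2, Tnnt2 and Plpp3. These genes also led a mast-like cluster and, with 300 genes as the one limit on cells, an unnamed cluster. Their part in the levels was not tested. The remaining cluster, led by Igkv8-30, Gm9733 and Ighg1 and named monocyte-like, had at most 27.2 CPM. With the STING agonist Mmp12 was therefore lower than untreated in the clusters led by Mrc1 and by Retnla and higher in the first, from 15 and 5 UMIs there and 25 UMIs in the first. The Mrc1 Pf4 subset itself was 234, 149, 647 and 589 cells, with the larger numbers in the libraries with the LTbR agonist.

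Mmp13, the collagenase next to Mmp12 on chromosome 9, was restricted to macrophage-like cells in much the same way. Of its 8342 UMIs 92.4% were in macrophage- or monocyte-like cells, 54.3% in C1q Trem2 cells alone, and dendritic-like subsets had almost none. Cells with Mmp12 had Mmp13 more often. After thinning, 162 of 1035 macrophage- or monocyte-like cells with Mmp12 had Mmp13 (15.7%), against 313 of 7701 cells without it (4.06%). Within Hspa1b Inhba cells the shares were 18.3% and 4.96%, and within C1q Trem2 cells 16.2% and 9.81%. The libraries differed in another way than for Mmp12 in Ccl24 Inhba cells. In Ccl24 Inhba cells Mmp13 was 61.3, 75.0, 41.0 and 21.3 CPM, lowest with the combination, where Mmp12 was at its highest level. The log2 ratio for the combination was -1.19 (-1.62 to -0.74), and 10 cells held 97.8% of the Mmp13 UMIs of that library. As a mean of CPM per cell the ratio was -0.98. In Hspa1b Inhba cells Mmp13 was 333, 277, 222 and 121 CPM, again lowest with the combination (-1.38, -1.95 to -0.84), with all UMIs of that library in 10 cells. Mmp12 was likewise highest untreated and lowest with the combination there. Its level differed less in C1q Trem2 cells, at 159, 210, 141 and 144 CPM (0.38, -0.16 and -0.13), and in Mrc1 Pf4 cells it was 157, 87.2, 103 and 135 CPM.

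Mmp14 was the member most evenly spread over macrophage-like cells. Of 37596 UMIs 88.8% were in macrophage- or monocyte-like cells, and it was found in 96.0%, 96.1%, 97.5% and 90.8% of C1q Trem2 cells (thinned, 42.2%, 40.6%, 40.5% and 28.8%). T-like cells had it in 2.33%, 1.96%, 2.15% and 1.28%. In C1q Trem2 cells the level was 557, 479, 468 and 352 CPM, lowest with the combination, whose log2 ratio was -0.65 (-0.77 to -0.53). The combination was also the lowest library in Ccl24 Inhba cells (598, 597, 580 and 432 CPM), in Hspa1b Inhba cells (452, 513, 394 and 300) and in Cxcl10 Tgm2 cells (411, 340, 379 and 289). These log2 ratios lay between -0.46 and -0.57. Mrc1 Pf4 cells were the exception, with Mmp14 lowest with the LTbR agonist (298, 314, 214 and 228 CPM). Over the whole class the level was 477, 427, 373 and 271 CPM, and the log2 ratio -0.79 (-0.86 to -0.73) for the combination. This is beyond any subset in the class named here, and the Mrc1 Pf4 cells, low in Mmp14, were a larger part of the class in the combination library. So were the monocyte-like cells, lower still in Mmp14, with 304 of 1816 cells against 193 of 2931 in the untreated library. The part of either in the class ratio was not tested. In Cd209a dendritic-like cells Mmp14 was 88.4, 75.6, 93.0 and 56.0 CPM, and in mature dendritic-like cells 61.5, 76.7, 33.2 and 29.4 CPM, where the combination was past 2-fold lower than the STING agonist alone (-1.14). Of the Mmp14 UMIs of Cd209a cells 61.5% to 85.3% were in the cells named macrophage- or monocyte-like on clustering again. In the mature cells that stayed dendritic-like Mmp14 was 42.7, 69.8, 20.04 and 32.4 CPM. Monocyte-like cells were far below every macrophage-like subset, at 2.10 to 9.97 CPM.

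Mmp19, a metalloproteinase that cuts basement membrane proteins, was highest in Cxcl10 Tgm2 monocyte-derived-like cells, whose range overlapped those of the next subsets. There it was 119, 173, 127 and 79.3 CPM, highest with the STING agonist (log2 ratio 0.51, 0.32 to 0.69) and lowest with the combination (-0.53). The combination was past 2-fold lower than the STING agonist alone (-1.04). In monocyte-like cells the STING agonist library was again the highest and the combination the lowest, at 68.4, 140, 58.4 and 41.9 CPM (0.93, 0.42 to 1.44, with the STING agonist). Within the Hp and Vcan cells of that subset, however, Mmp19 was 76.1, 158, 80.8 and 77.9 CPM, so that the STING agonist library alone stood out. In Ccl24 Inhba cells it was 77.2, 117, 109 and 61.6 CPM. The value past 2-fold in Mrc1 Pf4 cells (39.0, 169, 50.1 and 56.4 CPM, log2 ratio 1.87, 1.36 to 2.39) rested on few cells. In the STING agonist library 10 cells held 88.3% of the Mmp19 UMIs, and without the 10 richest cells of each library the ratio was 0.18.

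Timp1, the secreted inhibitor that binds pro-MMP9, was highest in Cxcl10 Tgm2 monocyte-derived-like cells. They held 49.2% of its 6233 UMIs, and their range lay above that of every other subset but the Mrc1 Pf4 cells. The level was 130, 190, 177 and 73.8 CPM. Each agonist alone gave a higher value than untreated, with log2 ratios of 0.52 (0.34 to 0.70) and 0.42, and the combination gave the lowest value (-0.74, -0.97 to -0.51). The combination was past 2-fold lower than the STING agonist alone (-1.25) and than the LTbR agonist alone (-1.15). In the largest finer cluster of this subset Timp1 was 180, 266, 220 and 95.1 CPM, and in the next, led by Rsad2 and Ifit2, 67.7, 106, 91.4 and 53.8 CPM, both in the same order as the whole. The combination library also had the lowest Timp1 in Cd209a dendritic-like cells (56.9, 71.2, 47.4 and 30.2 CPM, -0.74) and in Ccl24 Inhba cells (37.9, 38.1, 29.2 and 14.4 CPM, -0.98). In the Cd209a cells that stayed dendritic-like on clustering again the combination was not the lowest (14.3, 42.7, 27.1 and 22.02 CPM), and 69.6% to 89.7% of the Timp1 UMIs were in those named macrophage- or monocyte-like. T-like cells were at 0.512 to 1.52 CPM.

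Mrc1 Pf4 cells had the opposite order, with Timp1 at 29.4, 6.94, 11.0 and 77.1 CPM and a log2 ratio of 1.14 (0.66 to 1.63) for the combination. The combination value came mainly from cells led by Retnla and Lyz1, where Timp1 was 44.9, 0, 34.3 and 216 CPM. These are the shallow cells whose leading genes also held Csmd1, Hmga2, Tnnt2 and Plpp3. In the untreated library all Timp1 UMIs of the subset were in 10 cells. With equal weight for each finer cluster the ratio was 0.23, short of 2-fold.

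Timp2, the inhibitor that can also assist MMP14, had a wider spread over cell types, T-like cells included, and no call past 2-fold. It was highest in Mrc1 Pf4 cells, at 110, 134, 104 and 167 CPM, a range above every other subset, with a log2 ratio of 0.56 (0.25 to 0.88) for the combination. Plasmacytoid dendritic-like cells came next, at 89.2, 91.3, 87.9 and 76.6 CPM, and then neutrophil-like cells at 56.5, 92.0, 62.9 and 71.9 CPM. These 2 ranges overlapped. C1q Trem2 cells had 38.1, 48.3, 41.4 and 46.7 CPM, and T-like cells 23.8, 26.8, 44.9 and 31.9 CPM. Over all macrophage- or monocyte-like cells Timp2 was 32.1, 37.0, 39.2 and 61.5 CPM (0.76, 0.61 to 0.92, with the combination). The Mrc1 Pf4 cells held 1367 of the 3388 UMIs of the class and were more numerous in both libraries with the LTbR agonist.

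**Figure D3:**
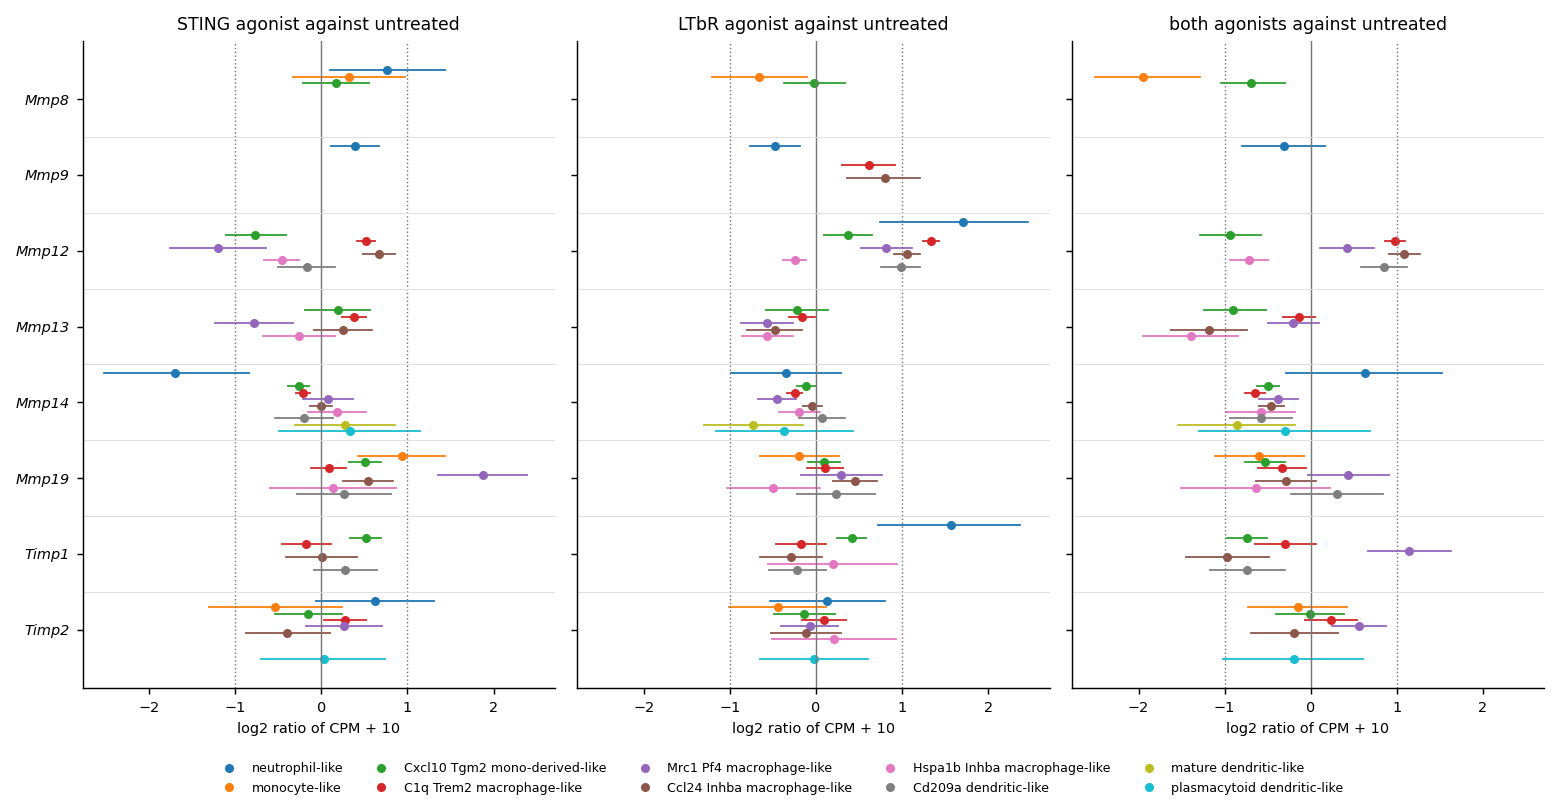
Log2 ratio of CPM + 10 against the untreated library for each member and subset with enough UMIs, 1 panel for each treatment, with bounds from the Poisson intervals and dotted lines at 2-fold. With the LTbR agonist all 4 pairs past 2-fold are higher and 3 are Mmp12, and with the combination Mmp12 is higher and Mmp13 lower in Ccl24 Inhba cells (1.09 and -1.19).

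The 2 by 2 layout allows the STING agonist to be read in the absence of the LTbR agonist (STING agonist against untreated) and in its presence (combination against LTbR agonist), from pairs of libraries that share none. Of 38 pairs of member and subset with enough UMIs in both readings, 23 were higher with the STING agonist alone, 26 were lower when it was added to the LTbR agonist, and 15 did both. Some of these pairs carry limits given above. They are Mmp14 in neutrophil-like cells (-1.71 and 0.99), Mmp19 in Mrc1 Pf4 cells (1.87 and 0.14) and the 3 pairs of Cd209a cells. Of all pairs of gene and subset with enough UMIs, 46766 in number, these were 51.8%, 50.5% and 23.7%. The median log2 ratio was 0.11 without and -0.38 with the LTbR agonist, beside 0.009 and -0.003 over all pairs of gene and subset. The value with the LTbR agonist was the lower one in 28 of the 38 pairs (73.7%), beside 51.7% of all pairs of gene and subset. All 6 pairs of Mmp19 were higher with the STING agonist alone (median 0.53), and 5 of the 6 were lower when it was added to the LTbR agonist (median -0.42). In Cxcl10 Tgm2 cells the medians over 7 pairs were 0.17 and -0.67, and Timp1 in these cells went from 0.52 to -1.15. The medians also went from higher to lower for Mmp8 (0.25 and -0.98 over 2 pairs), Mmp13 (0.19 and -0.68 over 5) and Timp1 (0.14 and -0.60 over 4). Among subsets they did so in monocyte-like (0.33 and -0.40), C1q Trem2 (0.18 and -0.23) and Ccl24 Inhba cells (0.13 and -0.55). Plasmacytoid dendritic-like cells had 1 pair (0.03 and -0.18). The members and subsets named next did not go from higher to lower. The medians of Timp2 were 0.03 and 0.14 over 7 pairs, those of Mmp12 -0.31 and -0.37 over 6, those of Mmp14 -0.20 and -0.38 over 7, those of the Mrc1 Pf4 subset 0.07 and 0.14 over 5, and those of Hspa1b Inhba cells -0.06 and -0.42. Those of Cd209a cells were -0.17 and -0.52 over 3 pairs and those of neutrophil-like cells 0.39 and 0.17 over 3. Mmp9 had 1 pair, in neutrophil-like cells (0.39 and 0.17). Members and subsets of a library are not replicates of a treatment, so these counts describe 4 libraries.

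**Figure D4:**
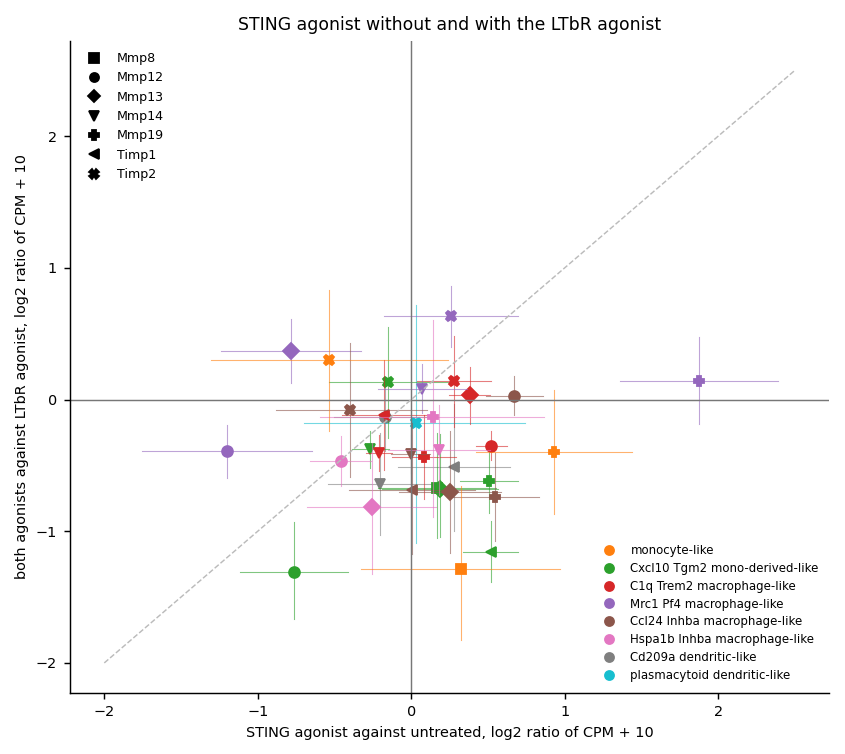
Log2 ratio for the STING agonist without the LTbR agonist (x axis, STING agonist against untreated) and with it (y axis, combination against LTbR agonist), 1 point for each member and subset, without the neutrophil-like cells, with the line of equal values dashed. Timp1 in Cxcl10 Tgm2 cells lies at 0.52 on the x axis and -1.15 on the y axis, and most points lie below the line.

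Genes with patterns most like those of the members were sought over 75 combinations of subset and library among 12284 genes outside the lists, by the Pearson correlation of log2(CPM + 10). These combinations share libraries and cell types, and the values are descriptions. Mmp13 was most like Fblim1 (0.96), C1qc (0.94) and Itga9 (0.93), and Mmp12 like Dpys, Fcrlb and Plxna1 (each 0.91). For Mmp14 the nearest were Arg1 (0.93), Cfb and Spint1 (each 0.92), and for Mmp19 Gab1, Msr1 and Tfec (each 0.95). Mmp8 was nearest to Acta2 (0.92), Lrg1 (0.88) and Csf3r (0.87), the last a receptor of the neutrophil lineage. Mmp9 was nearest to 4933432I03Rik (0.91), Dhrs9 (0.89) and 5430425K12Rik (0.88). Timp1 was nearest to Ifi211 (0.82), Ifi205 and Gm5431 (each 0.81), the first 2 of them interferon-inducible genes, and Timp2 had no gene above 0.64 (Nav2). Between members the correlation was 0.87 for Mmp12 with Mmp13, 0.86 for Mmp12 with Mmp14, 0.60 for Mmp8 with Mmp9 and -0.09 for Timp1 with Timp2.

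Other genes of the system were read from a fixed list of 16 further metalloproteinases, 4 further inhibitors, 9 genes of activation, docking and uptake, 8 ADAM sheddases and 9 other matrix proteases in the table. In neutrophil-like cells 2 of these genes were past 2-fold against untreated, beside 3.04% of all genes tested there with the STING agonist and 1.78% with the LTbR agonist. Lcn2, a secreted protein that binds MMP9, was higher with the LTbR agonist in neutrophil-like cells, from 343 to 730 CPM (1.07, 0.80 to 1.34), and from 405 to 998 CPM (1.28) without the cells that the finer clustering placed elsewhere. Lrp1, a receptor that takes up protease and inhibitor complexes, was lower with the STING agonist in neutrophil-like cells, from 98.5 to 33.7 CPM (-1.31). Without the placed cells it went from 37.3 to 10.99 CPM, on 21 and 9 UMIs, fewer than the 50 needed for a call. No sheddase or other matrix protease was past 2-fold against untreated in any class. Between treated libraries, Ctss was higher in neutrophil-like cells with the combination than with the STING agonist alone (997 against 426 CPM, 1.21), which was 0.18 without the placed cells. Adam19 was lower there with the combination than with the LTbR agonist alone (57.5 against 132 CPM, -1.08), and also without the placed cells (63.6 against 169.7 CPM, on 8 and 166 UMIs). All genes tested in these 2 comparisons were past 2-fold in 7.22% and 5.96%. Of the further metalloproteinases, at most 2 had enough UMIs in a class. Mmp25, a membrane-anchored enzyme, had a mean of 155 CPM in dendritic-like cells, 39.7 in neutrophil-like and 15.0 in macrophage- or monocyte-like cells. The gelatinase Mmp2 had a mean of 3.51 CPM in macrophage- or monocyte-like cells. Among the highest of the other groups, with no call against untreated, were Cd44, a docking receptor for MMP9 (means of 1591 CPM in neutrophil-like, 743 in macrophage- or monocyte-like and 309 in dendritic-like cells), and Plaur, the urokinase receptor (1946 in neutrophil-like and 734 in macrophage- or monocyte-like cells). The sheddase Adam8 had means of 455, 230 and 119 CPM in the same order of classes, and the lysosomal cathepsins Ctss and Ctsb 752, 3410 and 1418 CPM and 419, 870 and 332 CPM. The other leading genes of these groups were Lrp1, Adam9, Adam10 and Ctsz in macrophage- or monocyte-like cells (432, 135, 133 and 733 CPM), Lcn2, Adam17, Adam19 and Ctsd in neutrophil-like cells (499.7, 89.2, 88.4 and 346 CPM), and Cd63, Bsg, Adam19, Adam10 and Ctsz in dendritic-like cells (227, 205, 86.7, 67.9 and 562 CPM). Of the further inhibitors, Timp3 had a mean of 6.58 CPM in dendritic-like cells, and Reck, Mmp3, Mmp17, Mmp23 and Mmp28 were below 3 CPM wherever they led.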

How the data were processed

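Live CD45+ cells of 4 libraries, 1 per group, were profiled with the 10x 5-prime chemistry. The authors aligned reads with Cell Ranger 7.1.0 to mm10 and deposited raw UMI counts per gene and cell in 1 table, where a barcode suffix named in the labels gives the library. Whether depth was equalised is not given in the sources used here. More than 1 single-cell experiment appears in the methods, and the labels do not say which of them these libraries are. The libraries held 32529174 to 60770280 UMIs.

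Cells with 300 to 5000 genes and at most 6% mitochondrial UMIs were kept, as in the study's methods. Cells were clustered without the members and listed genes (54 genes) and 633 receptor segment genes, on 2000 variable genes, 30 components and 20 neighbours (scanpy 1.11.5, Leiden resolution 1, in Python 3.11.15). Clusters were named from marker lists, so names are rebuilt and may differ from those of the study. A fine cluster is one at resolution 2. Dendritic-like cells were clustered once more among themselves. Doublets were kept, and scores of 0.2 or more were left out as an alternative. UMIs were summed per library and subset and divided by all UMIs of those cells. Shares of cells carry Clopper-Pearson intervals in the tables, and thinning drew 1000 UMIs a cell. The count of calls was tested on simulated data before use. edgeR 4.0.16 gave scaling factors for 1 alternative. The members and lists were chosen with earlier results of these data known. Named genes were the 8 members, listed genes past 2-fold in a class or among the 3 highest of their group, and the 3 most alike genes of each member. A result for 1 listed gene is not reported here.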

Additional observations from a re-analysis of the deposited data

Results flagged for a closer look

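The differences between cell subsets or backgrounds given here are differences of 2 log2 ratios whose intervals pointed in opposite directions, and none was tested. Mmp12 with the STING agonist was lower in Mrc1 Pf4 cells and higher in C1q Trem2 and Ccl24 Inhba cells, a difference of -1.72 from C1q Trem2 cells and of -1.87 from Ccl24 Inhba cells. With the LTbR agonist Mmp12 was lower in Hspa1b Inhba cells, and the log2 ratio was larger by 1.58 in C1q Trem2 cells, by 1.31 in Ccl24 Inhba cells and by 1.96 in neutrophil-like cells. With the combination the log2 ratio of Mmp12 in Ccl24 Inhba cells exceeded that in Cxcl10 Tgm2 cells by 2.02 and that in Hspa1b Inhba cells by 1.80. Timp1 with the combination was higher in Mrc1 Pf4 cells and lower in the subsets named next, a difference of 1.88 from Cd209a dendritic-like cells, 1.88 from Cxcl10 Tgm2 cells and 2.12 from Ccl24 Inhba cells. Most Timp1 UMIs of the Cd209a cells were in cells named macrophage- or monocyte-like when the dendritic-like cells were clustered again. The log2 ratio for the STING agonist with the LTbR agonist, less that without it, was 2.69 for Mmp14 in neutrophil-like cells and -1.67 for Timp1 in Cxcl10 Tgm2 cells. The neutrophil-like values among these rest on the cells that a finer clustering placed with B-like cells.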

How the results depend on the processing

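No paired analysis was possible because each group has 1 library. Of 748 values of 62 log2 ratios under other settings, 650 stayed within their bounds, 96 moved beyond them and 2 reversed: Timp1 in neutrophil-like cells with the LTbR agonist was -0.48 both with equal weight for each fine cluster and without the neutrophil-like cells placed elsewhere at resolution 2. In the 3 classes, the count of 1 for the STING agonist was 0 with an offset of 50 CPM, a minimum of 200 UMIs, resolution 0.5 or 2, no doublet scores of 0.2 or more, 300 genes as the one limit on cells, or no placed cells, and 3 at a limit of 1.5-fold. Without the 10 richest cells the Mmp14 call was lost, and Mmp12 was called lower in dendritic-like cells in its place. The count of 3 for the LTbR agonist was 5 with an offset of 1 CPM, 0 with 50 CPM or at resolution 2, and 1 with 200 UMIs, resolution 0.5, the mean of CPM per cell or no placed cells. The count of 0 for the combination was 1 with an offset of 1 CPM or without the 10 richest cells, 2 with no UMI minimum and 7 at 1.5-fold. Over subsets, by settings chosen after seeing the data, the count of 3 for the STING agonist was 5 (offset 1 CPM) or 1 (50 CPM, mean per cell). Without the 10 richest cells 0 of these 3 calls were kept, and other pairs were past 2-fold in their place. The count of 4 for the LTbR agonist was 7 (1 CPM), 1 (50 CPM) or 2 (equal weight, no placed cells), and that of 5 for the combination was 11 (1 CPM), 1 (50 CPM) or 15 (without the 10 richest cells). Of the 4 LTbR agonist calls 1 was kept with equal weight and 2 without the 10 richest cells. The 15 pairs of the combination held all 5 of its calls. As means of CPM per cell, the mean level of Mmp9 in neutrophil-like cells was 541 in place of 441, and in macrophage- or monocyte-like cells that of Mmp12 was 278 in place of 288.7 and that of Mmp19 80.4 in place of 85.1. The cause of these moves was not tested, beyond what each setting leaves out. Neutrophil-like cells were shallow and few with the combination (69 cells), which limits every member there but Mmp9.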
